A study of Saccharomyces cerevisiae with 40 samples.

Results

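The genes of the translation initiation factors eIF2 and eIF2B, with *GCN2* and *GCN4*, were followed in S288C, the laboratory strain of *Saccharomyces cerevisiae*, in 59A, a haploid strain derived from EC1118, a wine yeast on the market, and in haploid segregants of their cross. The set holds 10 genes, of which 8 have a probe among the 4388 of the deposited table. These are *GCN3*, *GCD7*, *GCD1* and *GCD2* of eIF2B, *SUI2* and *GCD11* of eIF2, and *GCN2* and *GCN4*. *GCD6* and *SUI3* were not analysed here. *GCN3* was chosen by its relation to R70, the rate of fermentation at 70% of its course, on these same arrays, so that its relation to that trait is a description. The other members, called its partners below, were taken for their function, and the comparison asks whether they vary as *GCN3* does.

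eIF2 carries the initiator methionyl-tRNA to the ribosome when it is bound to GTP. eIF2B is the exchange factor that gives eIF2 its GTP back after each round. In starved cells the kinase Gcn2 phosphorylates the alpha subunit of eIF2, which turns eIF2 from a substrate into an inhibitor of eIF2B. General initiation then slows, whereas the mRNA of the transcription factor Gcn4 is translated better, and Gcn4 raises the genes of amino acid synthesis. Within eIF2B of yeast, Gcn3 (alpha), Gcd7 (beta) and Gcd2 (delta) form the part that senses phosphorylated eIF2, and Gcd1 (gamma) and Gcd6 (epsilon) form the catalytic part. Gcn3 is the one subunit of eIF2B that yeast can live without.

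RNA came from cultures on a synthetic grape must at 28 °C, taken at 50% of the fermentation. There were 5 independent cultures of S288C, 5 of 59A and 1 of each of 30 segregants from 21 asci, so that some segregants are sister spores. 59A is a prototroph of mating type MATa, and for S288C the labels give MATa and the paper MATα. The same pool of RNA from all the segregants was the reference on each of the 40 arrays. A value is the log2 ratio of a strain to that pool, so that 0 means the level of the pool, and it was read as sample over pool, a direction that the table itself does not state. For a single probe 0 is approximate, since 30.1% of probes had a mean over the segregants of more than 0.2 in size. *ASP3-1*, an asparaginase gene known from S288C and missing in many other yeasts, averaged 0.54 in S288C and -0.60 in 59A under this reading.

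Array medians over all probes lay between -0.026 and 0.028. Cultures of one parent correlated over all probes at r between 0.82 and 0.93 in S288C and between 0.85 and 0.96 in 59A. Segregants correlated with each other at r between -0.44 and 0.86, and since every sample carried Cy3 and the pool Cy5, this low end was kept as measured. A ratio is relative to the RNA labelled, and RNA per cell was not measured.

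S288C and 59A differed in the transcripts of *GCD1* and *GCN2*, both lower in S288C, and in no other member at the threshold. Across all probes, 1352 of 4388 were called between the parents at an adjusted p under 0.01 (limma, Benjamini-Hochberg over all probes), which is 30.8%, with 13.7% higher and 17.1% lower in S288C. The 2 calls among 8 members therefore stand near the share of the whole table.

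*GCD1*, the gamma subunit in the catalytic part of eIF2B, had log2 ratios of -0.09, -0.27, -0.06, -0.17 and -0.09 in the S288C cultures, against 0.34, 0.38, 0.59, 0.50 and 0.23 in the 59A cultures. All cultures of S288C were below all those of 59A. The means of 5 cultures were -0.14 ± 0.09 (SD) in S288C and 0.41 ± 0.14 in 59A. The difference, S288C minus 59A, was -0.55 with a standard error of 0.07, a 1.46-fold lower level in S288C (limma, adjusted p = 4.29e-05, and exact permutation p = 0.00794, two-sided over all groupings of the 10 arrays, the smallest they can give).

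*GCN2*, the kinase of eIF2, had log2 ratios of -0.32, -0.07, -0.20, 0.28 and 0.00 in S288C, against 0.21, 0.65, 0.52, 0.76 and 0.16 in 59A. The highest S288C culture overlapped the lowest 59A cultures. The means of 5 cultures were -0.06 ± 0.23 (SD) in S288C and 0.46 ± 0.27 in 59A, a difference of -0.52 with a standard error of 0.13 (limma, adjusted p = 0.00653, and exact permutation p = 0.0238). This call stood close to the threshold. The adjusted p of limma went past 0.01 without S288C replicate 1 (0.0160), 2 (0.0141), 3 (0.0175) or 5 (0.0121), and without 59A replicate 2 (0.0188), 3 (0.0172) or 4 (0.0180). The methods' t-test gave an adjusted p of 0.0286.

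The regulatory subunits of eIF2B did not pass. *GCN3* had log2 ratios of -0.35, 0.05, -0.14, 0.06 and -0.24 in S288C, against -0.34, -0.19, -0.27, -0.22 and -0.25 in 59A. The strains overlapped, and the difference of 0.13 with a standard error of 0.08 gave an adjusted p of 0.205 in limma. Without 1 array it lay between 0.08 (without S288C replicate 4, and without S288C replicate 2) and 0.19 (without S288C replicate 1, adjusted p = 0.0486), with no call. The difference in *GCN3* was thus within the spread of the cultures, while R70, in g CO2 per l and h, was 0.81 in S288C and 1.49 in 59A (the authors' means over 5 fermentations).

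*GCD7* was low in both parents, with -0.60, -0.60, -0.69, -0.90 and -0.72 in S288C, against -0.49, -0.64, -0.59, -0.53 and -0.27 in 59A. The difference was -0.20 with a standard error of 0.08 (limma, adjusted p = 0.0527, and exact permutation p = 0.0317). *GCD2* was low in both parents as well, with -0.57, -0.54, -0.55, -0.43 and -0.60 in S288C, against -0.55, -0.50, -0.51, -0.50 and -0.49 in 59A. Here the difference was -0.03 with a standard error of 0.05 (limma, adjusted p = 0.673).

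The subunits of eIF2 lay slightly above the pool in both parents. *SUI2*, the alpha subunit that Gcn2 phosphorylates, ranged from 0.04 to 0.25 in S288C and from 0.07 to 0.36 in 59A, and *GCD11*, the gamma subunit that binds GTP and the initiator tRNA, from 0.09 to 0.25 in S288C and from 0.15 to 0.31 in 59A. The differences were -0.08 (standard error 0.07) for *SUI2* and -0.07 (standard error 0.05) for *GCD11*, with adjusted p of 0.329 and 0.293 in limma. *GCN4* ranged from -0.05 to 0.21 in S288C and from 0.06 to 0.41 in 59A, with a difference of -0.12, a standard error of 0.07 and an adjusted p of 0.206 in limma. The array measures the mRNA of *GCN4* and gives nothing on its translation.

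**Figure D1:**
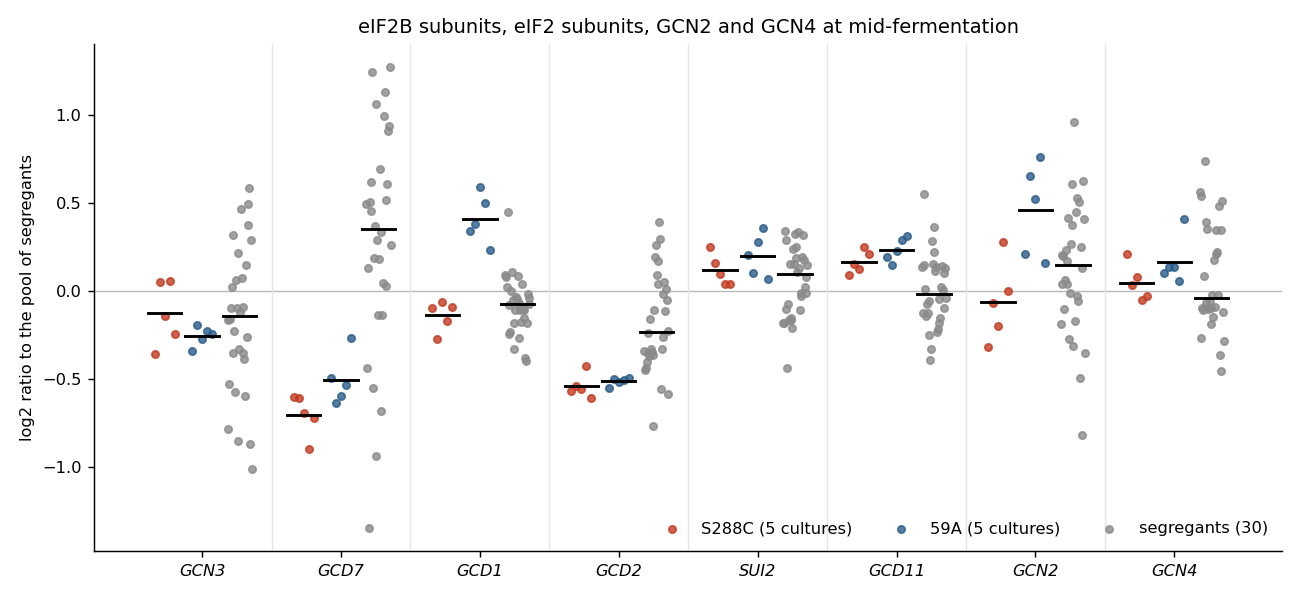
Log2 ratio to the pool of segregants (vertical axis) of the 8 measured genes (horizontal axis), with 1 point per culture. Points are the 5 S288C cultures, the 5 59A cultures and the 30 segregants, and the bars are the means of the parents and the median of the segregants. *GCD1* separates the parents, and *GCD7* reaches from -1.34 to 1.27 among segregants, most of them above both parents.

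Segregants spread more than the cultures of a parent for each of the 8 members, as they did for 98.2% of all probes. The ratio of SDs ran from 1.44 in *GCD1* to 5.64 in *GCD2*, beside a median ratio of 2.69 over all probes. The SD over the segregants was 0.64 for *GCD7*, 0.43 for *GCN3*, 0.37 for *GCN2*, 0.31 for *GCN4* and 0.28 for *GCD2*. It was 0.21 for *GCD11*, 0.20 for *SUI2* and 0.17 for *GCD1*. The median over all probes was 0.29, beside a median SD of 0.11 for cultures within a parent. *GCD7* stood at the 95.5th percentile of all probes in its SD over segregants, *GCN3* at the 81.6th and *GCD1* at the 6.95th. These are descriptions with 1 array per segregant, and the spread between cultures of a segregant was not measured. The values of *GCD2* also shifted with the order of the samples, as given below with the pairs of members.

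*GCD7* ran from -1.34 in segregant 5a to 1.27 in 29c, a range of 6.13-fold, with a median of 0.36. Both parents had negative ratios, and 25 of 30 segregants were higher than every parental array, 2 were lower and 3 were inside. The mean of *GCD7* over the segregants was 0.30, at the 94.3rd percentile of all probes, although the pool was made from these same segregants. The source of this offset was not tested, so the distance of parents and segregants from the pool is uncertain for this probe. *GCD2* ran from -0.76 in 16a to 0.40 in 19c with a median of -0.23, and again 25 of 30 segregants were higher than every parental array. Among all probes, 6.27% (275 of them) had 25 or more segregants above all parental arrays.

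*GCN3* ran from -1.01 in 31b to 0.59 in 25a, a range of 3.02-fold, with a median of -0.14. Of the segregants 10 were above all parental arrays, 8 below and 12 inside. The 18 outside stand near the median of 17 over all probes.

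*GCD1* behaved otherwise. It ran from -0.40 in 24a to 0.45 in 5a with a median of -0.07, and 27 of 30 segregants were inside the range of the parental arrays. That range was wide because the parents differed, and 29 of 30 segregants were lower than every 59A culture. Of these, 14 were within the S288C cultures, 12 lay between the strains and 3 were below both. Segregant 5a, the only one among the 59A values, was also the lowest in *GCD7* and the highest in *GCD11*.

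*GCN2* ran from -0.81 in 24a to 0.96 in 18c around a median of 0.15, with 26 of 30 segregants inside the parental arrays. *GCN4* ran from -0.45 in 25a to 0.74 in 9a around -0.04, with 15 segregants below and 5 above all parental arrays. *SUI2* ran from -0.43 in 7a to 0.34 in 4c and *GCD11* from -0.39 in 16a to 0.55 in 5a. For *SUI2*, 14 segregants were below all parental arrays and 0 above, and for *GCD11*, 18 were below and 2 above.

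**Figure D2:**
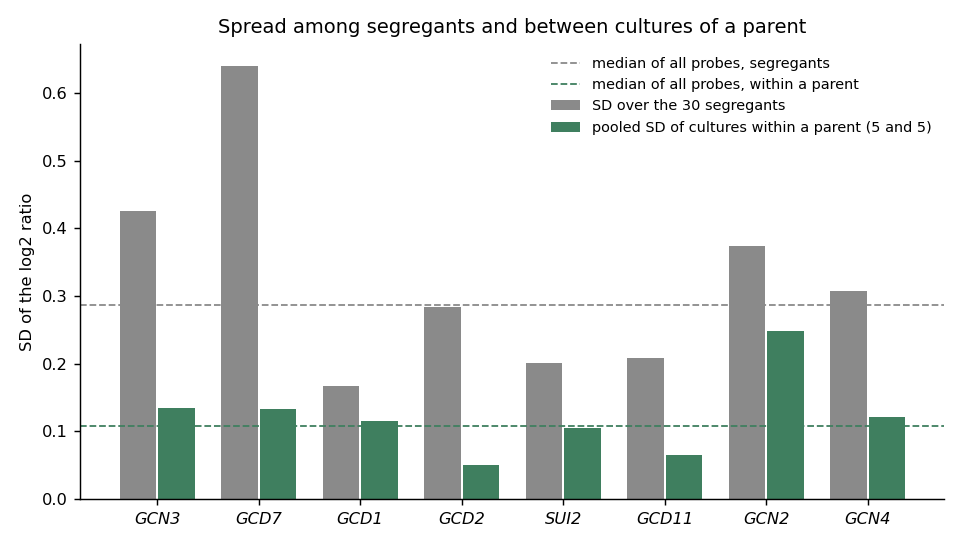
SD of the log2 ratio (vertical axis, from 0) of each gene over the 30 segregants (grey) and between cultures within a parent (green, pooled over 5 S288C and 5 59A cultures). Dashed lines are the medians of all probes, 0.29 over segregants and 0.11 within a parent. Of these genes *GCD7* varied the most among segregants and *GCD1* the least.

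*GCN3* ranked 3rd of all probes in the size of its Spearman's rho with R70 over the segregants. The values nearest in size were -0.87 for *SPC1*, a subunit of the signal peptidase, -0.85 for *HSP30*, a stress protein of the plasma membrane, -0.84 for *GCN3*, 0.84 for *THI3*, a regulator of thiamine genes, and -0.82 for *TVP23*, a Golgi membrane protein. Pearson's r of *GCN3* with R70 was -0.83, and -0.81 without the 2 segregants farthest from the median of R70. These values chose *GCN3* and are given without a test.

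R70 in the segregants reached from 0.67 g CO2 per l and h in 22c to 2.08 in 4c, with a median of 1.36. In the 15 slower segregants, with R70 up to 1.32, *GCN3* ranged from -0.39 to 0.59 with a median of 0.15, and 11 of 15 had a ratio above 0. In the 15 faster ones, with R70 from 1.40, it ranged from -1.01 to -0.09 with a median of -0.35, and 0 of 15 had a ratio above 0. This split restates the relation by which *GCN3* was chosen. The mean of *GCN3* over all segregants was -0.16, so for this probe 0 is only roughly the level of the pool. The 4 segregants with R70 under 1 had *GCN3* between 0.15 and 0.59, and the 7 with *GCN3* under -0.5 had R70 between 1.81 and 2.08. S288C, with an R70 of 0.81, averaged -0.12 ± 0.18 in *GCN3* (SD, n = 5), and each of its cultures was lower than those 4 slow segregants.

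The sister spores are among the segregants by which *GCN3* was chosen, and their values are shown as a description only. Of 13 pairs of sisters from 6 asci, with some spores in several pairs, the spore with the higher *GCN3* had the lower R70 in 10. In ascus 22, *GCN3* was 0.15 in 22c, -0.26 in 22d and -0.60 in 22a, with R70 at 0.67, 1.77 and 1.99 g CO2 per l and h. In ascus 16, it was 0.07 in 16a, -0.09 in 16b, 0.22 in 16d and -0.85 in 16c, with R70 at 1.00, 1.06, 1.25 and 1.81. Ascus 20 ran the other way, with *GCN3* at -0.09 in 20a and -0.39 in 20b and R70 at 1.50 in 20a and 1.19 in 20b, the latter given without an SD in the paper's supplement. *GCD7* in ascus 22 was 1.13 in 22c, 0.03 in 22d and 0.99 in 22a, so that the slowest and the fastest of these sisters were both high in it.

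The partners were not called with R70. Of the 7, none had a rho over 0.6 in size with an adjusted p under 0.05 (Spearman's rho, t approximation, Benjamini-Hochberg over all probes), and the count was 0 with Pearson's r too. At an unadjusted p under 0.05 there were 2 by Spearman's rho and 0 by Pearson's r. Over all probes 2.32% were called with R70, and 18.6% had an unadjusted p under 0.05 by Spearman's rho. The median size of rho was 0.23 over the partners and 0.18 over all probes. Each relation below is over 30 segregants, with p-values from 100000 permutations, two-sided.

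In eIF2B, *GCD7* and *GCD1* had the unadjusted p under 0.05, and neither was called. For *GCD7*, rho with R70 was -0.43 (95% interval -0.69 to -0.07, permutation p = 0.0190, adjusted p = 0.158), and r was -0.32 (permutation p = 0.0879), or -0.36 without the 2 segregants farthest from the median. With the first spore of each ascus alone, its rho was -0.28 (adjusted p = 0.585). Its median was 0.61 in the 15 slower segregants and 0.13 in the 15 faster ones, but the ranges overlapped widely, from -0.68 to 1.27 and from -1.34 to 0.99. For *GCD1*, rho was 0.39 (95% interval 0.02 to 0.66, permutation p = 0.0340, adjusted p = 0.220), and r was 0.32 (permutation p = 0.0792), or 0.26 without those 2. For *GCD2*, rho was -0.23 (95% interval -0.56 to 0.15, permutation p = 0.210) and r -0.19 (permutation p = 0.312), or -0.11 without the 2.

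Outside eIF2B the relations to R70 were small and their intervals wide. For *SUI2*, rho was 0.10 (95% interval -0.28 to 0.45, permutation p = 0.601) and r 0.12 (permutation p = 0.522). For *GCD11*, rho was 0.21 (-0.17 to 0.54, permutation p = 0.255) and r 0.19 (permutation p = 0.318). Both subunits of eIF2 thus showed no detectable relation to this trait with 30 strains, which does not show that there is none. For *GCN2*, rho was 0.01 (-0.36 to 0.38, permutation p = 0.947) and r -0.01 (permutation p = 0.945). For *GCN4*, rho was 0.31 (-0.07 to 0.61, permutation p = 0.0942) and r 0.32 (permutation p = 0.0839). The difference between the rho of *GCN3* and that of a partner was not tested, because *GCN3* was chosen by it.

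**Figure D3:**
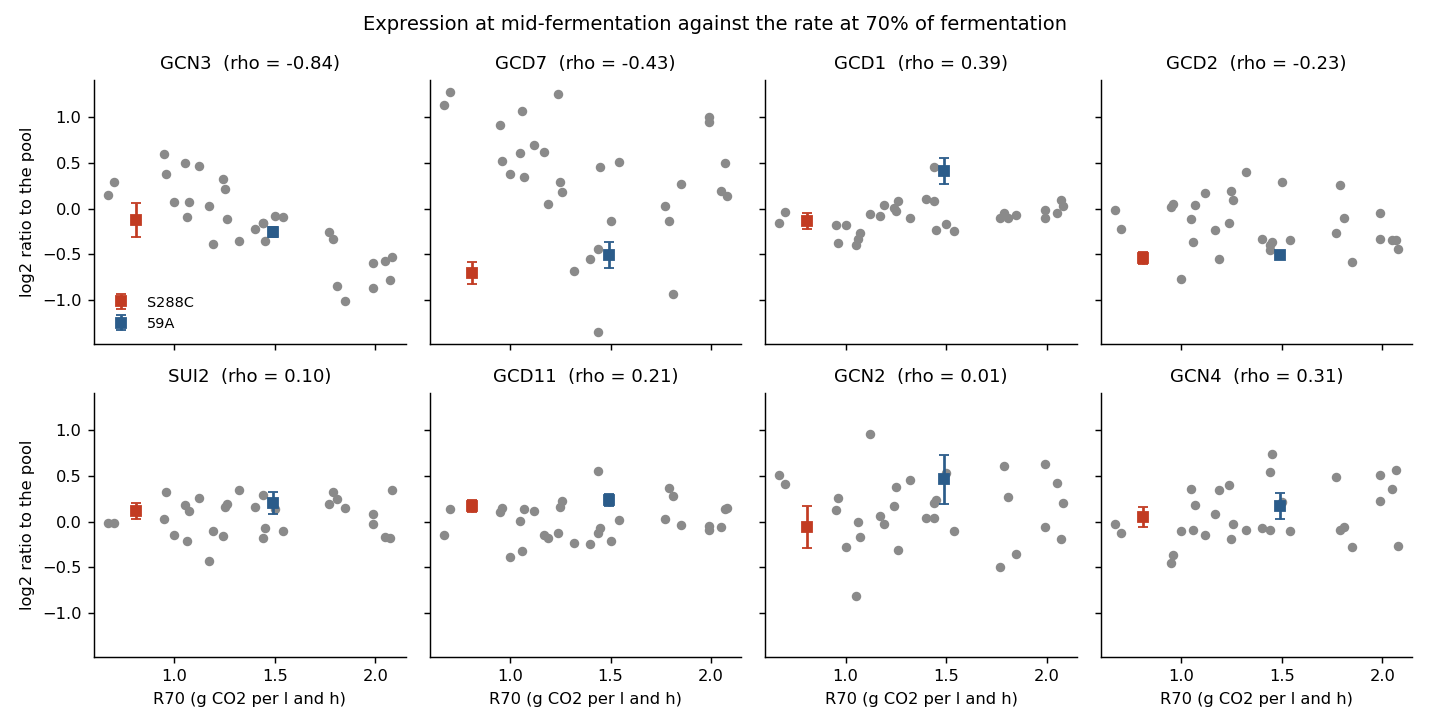
Log2 ratio to the pool (vertical axes) against R70 in g CO2 per l and h (horizontal axes), 1 panel per gene, with Spearman's rho over the 30 segregants (grey points). Squares are S288C and 59A, at the authors' mean R70 and the mean ± SD of 5 cultures. *GCN3*, at a rho of -0.84, was chosen by this relation, and the partners lie between -0.43 and 0.39.

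Over all 10 fermentation traits no partner was called. The 70 relations of 7 partners included 9 with an unadjusted p under 0.05 by Spearman's rho and 8 by Pearson's r, and 0 with an adjusted p under 0.05 by rho. Over all probes and traits, 17.6% of relations had an unadjusted p under 0.05. The shares of probes called were 1.44% for the maximum rate Rmax, 1.41% for R50, 1.89% for the duration Fd, 1.32% for assimilated nitrogen Nass and 3.17% for pyruvic acid. For the cell population Cp, succinic acid, glycerol and acetic acid the share was 0%.

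*GCN3* itself had a rho of -0.48 with Rmax, -0.77 with R50 and 0.73 with Fd. R50 and Fd are not separate evidence, since over the segregants they had a rho of 0.89 and -0.90 with R70. With the metabolites its rho was -0.52 for pyruvic acid, 0.40 for acetic acid, 0.34 for succinic acid, -0.31 for Nass and 0.09 for glycerol, and it was 0.26 for Cp, over 29 segregants. These are descriptions as well.

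Among the partners, *GCD7* and pyruvic acid came nearest to a call. The Spearman coefficient was -0.49 (95% interval -0.73 to -0.15, permutation p = 0.00669, adjusted p = 0.0517). Pearson's r was -0.42 (permutation p = 0.0196), and -0.42 without the 2 segregants farthest from the median of pyruvic acid. *GCD7* also had a rho of -0.42 with glycerol (permutation p = 0.0223, adjusted p = 0.160), with an r of -0.40 (permutation p = 0.0272) that was -0.31 without 2 segregants.

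*GCD11* had a rho of 0.44 with Nass (95% interval 0.08 to 0.70, permutation p = 0.0162, adjusted p = 0.130), with an r of 0.42 (permutation p = 0.0205) that was 0.43 without 2 segregants. *GCD2* had a rho of 0.43 with succinic acid (0.07 to 0.69, permutation p = 0.0188, adjusted p = 0.481), with an r of 0.39 (permutation p = 0.0328) that was 0.38 without 2 segregants. *GCN4* had a rho of 0.42 with R50 (0.06 to 0.69, permutation p = 0.0203, adjusted p = 0.220), with an r of 0.34 (permutation p = 0.0679) that was 0.41 without 2 segregants. None of these relations passed the adjustment over all probes.

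**Figure D4:**
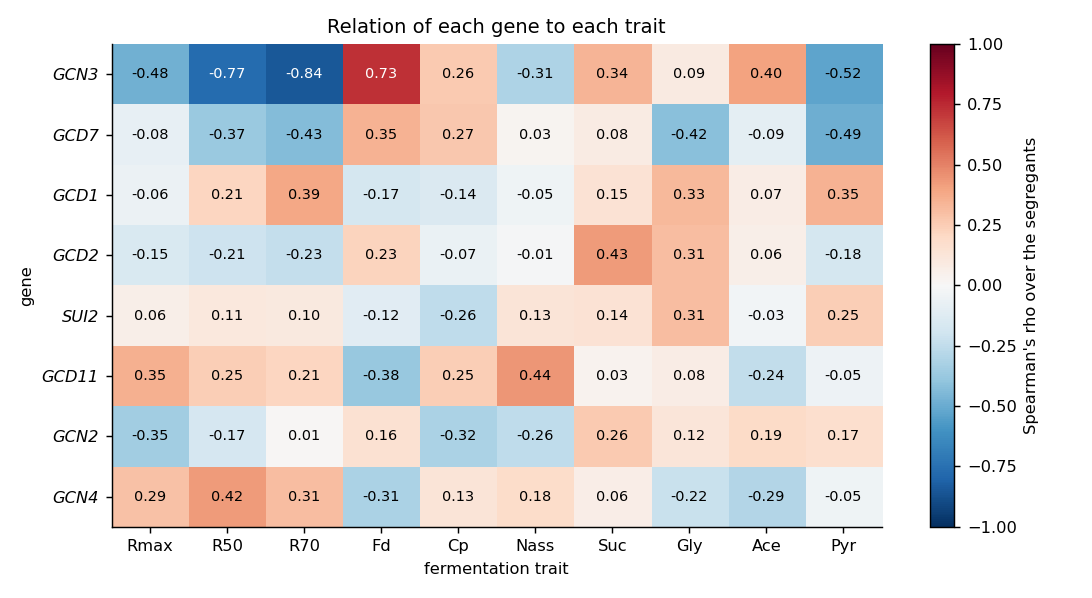
Spearman's rho (colour and number) of each gene (rows) with each fermentation trait (columns) over the segregants, 30 for all traits except Cp with 29. Rmax, R50 and R70 are rates, Fd the duration, Cp the cell population, Nass assimilated nitrogen, and Suc, Gly, Ace and Pyr succinic acid, glycerol, acetic acid and pyruvic acid. Values over 0.6 in size occur in the *GCN3* row only, for R50, R70 and Fd.

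The partners were next set against *GCN3* itself, each over the same 30 arrays. None of 7 was called by Spearman's rho or by Pearson's r, with 3 at an unadjusted p under 0.05 by rho and 0 by r, while 120 of 4387 other probes were called, which is 2.74%. By rho 22.7% of probes had an unadjusted p under 0.05. The largest rho in size among the partners were those of the eIF2B subunits.

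*GCD7*, which sits beside Gcn3 in the regulatory part, had a rho with *GCN3* of 0.44 (95% interval 0.08 to 0.70, permutation p = 0.0160, adjusted p = 0.119), and an r of 0.35 (permutation p = 0.0588) that was 0.48 without the 2 segregants farthest from the median of *GCN3*. *GCD2*, the third regulatory subunit, had a rho of 0.38 (0.01 to 0.66, permutation p = 0.0387, adjusted p = 0.191), and an r of 0.32 (permutation p = 0.0808) that was 0.29 without 2. *GCD1*, of the catalytic part, had a rho of -0.37 (-0.65 to -0.00107, permutation p = 0.0448, adjusted p = 0.205), and an r of -0.32 (permutation p = 0.0830) that was -0.34 without 2. None of these passed the threshold. For *GCD7*, rho was 0.55 (adjusted p = 0.0480) without the 2 segregants, under the required size of 0.6, and 0.31 (adjusted p = 0.473) with the first spore of each ascus.

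*GCN4* had a rho with *GCN3* of -0.33 (-0.63 to 0.04, permutation p = 0.0720) and an r of -0.29 (permutation p = 0.115). The other 3 partners were near 0, at -0.01 for *SUI2*, -0.000222 for *GCD11* and 0.05 for *GCN2*, with permutation p of 0.976, 1 and 0.812 and intervals that reached from -0.38 to 0.41. The median size of rho with *GCN3* was 0.33 over the partners and 0.22 over all probes.

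The probes closest to *GCN3* were of other functions. For some of them the paper reports a shared linkage. At a threshold it calls permissive, it lists *GCN3*, *SPC1*, *HSP30* and *TVP23* under a hotspot on chromosome II that overlaps loci for R70 and Fd. It lists *THI4* and *YAR069C* under another hotspot, on chromosome XI. The 5 highest were *SPC1* at a rho of 0.85, *HSP30* at 0.82, *TOM7*, of the import complex of mitochondria, at 0.82, *TVP23* at 0.81 and *CRS5*, a metallothionein, at 0.81. The 5 lowest were *THI4*, of thiamine synthesis, at -0.80, and *PET18*, *YAR069C*, *THI3* and *ZEO1*, a membrane protein, at -0.77, -0.77, -0.77 and -0.76. Of the probes called with *GCN3*, 71 were also called with R70, which is 59.2% of the list of *GCN3* and 70.3% of the list of R70, and these measures share the arrays and the choice of *GCN3*.

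**Figure D5:**
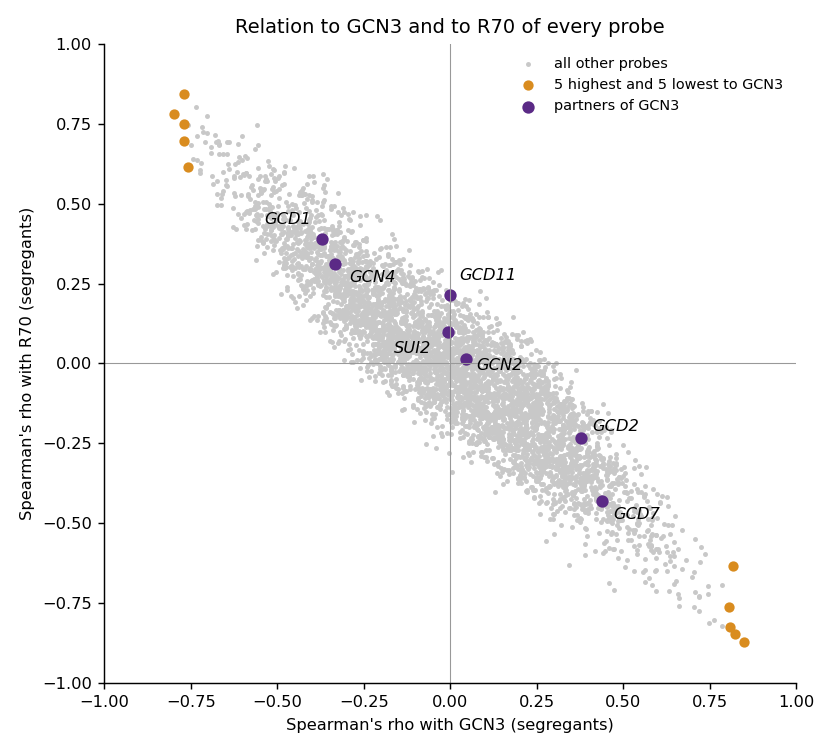
Spearman's rho with *GCN3* (horizontal axis) and with R70 (vertical axis) over the 30 segregants, 1 point per probe. Partners of *GCN3* are purple and the 5 highest and 5 lowest probes in rho with *GCN3* orange. The partners lie inside the cloud of all probes, between -0.37 and 0.44 on the horizontal axis. The axes are not independent, as *GCN3* was chosen by R70.

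Among themselves the members did not move as a block. Over the 28 pairs, rho ranged from -0.45 to 0.52 with a median size of 0.19, beside 0.24 for all pairs of probes. The highest values were 0.52 for *SUI2* with *GCD11*, the measured subunits of eIF2, and 0.50 for *GCD2* with *GCN2*. The lowest were -0.45 for *GCD7* with *SUI2* and -0.44 for *SUI2* with *GCN4*. In eIF2B, *GCD7* and *GCD2* had a rho of 0.05, *GCD7* and *GCD1* of -0.32, and *GCD1* and *GCD2* of -0.19. All pairs come from the same 30 arrays and are given without p. In the order of deposit, *GCD2* lay between -0.76 and -0.16 in segregants 1b to 16b. From 16d to 20a it lay between 0.04 and 0.40. *SUI2* lay between 0.11 and 0.34 from 16d to 20a, and between -0.43 and 0.34 from 1b to 16b. *GCD11* and *GCN2* had both signs in each stretch. Whether sample order reflects array handling, and adds to these rho or to the spread of *GCD2*, was not tested.

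Other genes of the pathway were read from lists made by function or by name. Of 17 genes that regulate eIF2, Gcn2 or Gcn4, 12 were measured, and 1 was called higher and 1 lower in S288C, beside 13.7% higher and 17.1% lower over all probes. *CDC123*, which assembles eIF2, averaged 0.29 ± 0.12 in S288C and -0.33 ± 0.10 in 59A (SD over 5 cultures, here and below), a difference of 0.61 with a standard error of 0.07 (limma, adjusted p = 1.51e-05). *SSN3*, a kinase that marks Gcn4 for breakdown, averaged -0.68 ± 0.08 in S288C and -0.45 ± 0.09 in 59A (limma, adjusted p = 0.00638). None of the 12 was called with R70, the nearest being *GLC7*, the phosphatase of eIF2, with a rho of 0.59 (permutation p = 0.00077, adjusted p = 0.0225) and an r of 0.51 (permutation p = 0.00409), and *SSN3* with a rho of -0.41 (permutation p = 0.0240, adjusted p = 0.184) and an r of -0.39 (permutation p = 0.0349). *GLC7* fell just short of the required size of 0.6. Both genes are given here for the size of their rho with R70, a choice that the permutation p does not allow for.

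Of 24 genes listed with the other initiation factors, some by name only, 14 were measured. Of these, 1 was called higher and 2 lower in S288C, again beside 13.7% and 17.1% of all probes. *TIF4631*, an eIF4G, averaged 0.37 ± 0.13 in S288C and 0.09 ± 0.03 in 59A (limma, adjusted p = 0.00281). *HYP2*, an eIF5A and listed here by that name, averaged -0.03 ± 0.09 in S288C and 0.32 ± 0.14 in 59A (limma, adjusted p = 0.00156). *HCR1*, of eIF3, averaged 0.18 ± 0.04 in S288C and 0.39 ± 0.04 in 59A (limma, adjusted p = 0.00214). *HYP2* was the only one of the 14 called with R70, beside 2.32% of all probes, at a rho of 0.64 (permutation p = 0.00025, adjusted p = 0.00903) and an r of 0.53 (permutation p = 0.00244), or 0.49 without the 2 segregants farthest from the median of R70. It was called with *GCN3* as well, at a rho of -0.60, which is not separate evidence, since *GCN3* was chosen by R70 on the same arrays. The near-identical *ANB1* can share its signal. Its own probe had a rho of 0.23 with R70 (adjusted p = 0.545) and of -0.24 with *GCN3*, and a parental difference of -0.08 (limma, adjusted p = 0.420). *TIF1* had a rho of 0.46 with R70 (permutation p = 0.0114, adjusted p = 0.118) and an r of 0.38 (permutation p = 0.0398). *TIF2*, with the same protein, had a rho of 0.42 (adjusted p = 0.168). *HYP2* and *TIF1* were named for the size of their rho with R70, a choice that the permutation p does not allow for.

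Of 46 genes of amino acid synthesis known as targets of Gcn4, 38 were measured, and 7 were called higher and 4 lower in S288C, or 11 in all, beside 30.8% of all probes (13.7% higher and 17.1% lower), a median difference of -0.06 beside -0.01 over all probes. *LYS20*, a homocitrate synthase of lysine synthesis with the close copy *LYS21*, averaged 1.03 ± 0.15 in S288C and 0.52 ± 0.06 in 59A (limma, adjusted p = 7.34e-05). *GLN1*, the glutamine synthetase, averaged 0.45 ± 0.22 in S288C and -0.01 ± 0.19 in 59A (adjusted p = 0.00540). *ILV1*, the threonine deaminase of isoleucine synthesis, averaged -0.34 ± 0.13 in S288C and 0.62 ± 0.19 in 59A, a difference of -0.96 with a standard error of 0.09 (limma, adjusted p = 2.61e-06).

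With R70, 3 of the 38 targets were called, 2 with a positive and 1 with a negative rho, beside 2.32% of all probes. *LYS9* had 0.69 (permutation p = 5e-05, adjusted p = 0.00276, r = 0.67), *TRP4*, of tryptophan synthesis, -0.63 (permutation p = 0.00028, adjusted p = 0.0111, r = -0.64), and *LYS12*, named after its values were seen, 0.61 (permutation p = 0.00049, adjusted p = 0.0163, r = 0.62). *LYS9* and *LYS12* encode enzymes of lysine synthesis. All 3 were named for the size of their rho with R70, a choice that the permutation p does not allow for. The paper lists them, and *HYP2*, among the genes correlated with R70 in these data. Without the 2 segregants farthest from the median of R70, r was 0.58 for *LYS9*, -0.68 for *TRP4* and 0.53 for *LYS12*. The same 3 genes were called with *GCN3*, beside 2.74% of all probes, with a rho of -0.75 for *LYS9*, 0.62 for *TRP4* and -0.64 for *LYS12*. That is not separate evidence, since *GCN3* was chosen by its relation to R70 on these same arrays. The median rho with R70 over the targets was -0.02, beside -0.01 over all probes.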

How the data were processed

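The authors hybridised each sample 2 times on arrays of 70-mers, and the deposited values are log2 ratios to the pool after print-tip loess within arrays and quantiles between arrays (R 2.9.2, limma), averaged per sample. That they are ratios of sample to pool was read from the methods. A filter on low signals is stated for the linkage analysis, and whether it was applied to this table of 4388 probes is not given in the sources used here. The deposited trait table holds 1 value per strain, by the methods from duplicate fermentations except for nitrogen. The paper's supplement gives no SD for R70 of 1b, 18b and 20b, for Cp of 20a and 25a, or for the metabolites of 14a. Whether those values rest on more than 1 fermentation is not given. Labels and methods differ on the culture volume and the labelling kit. Names came from the gene table of assembly R64 for 4104 probes, and 284 kept the array's name. No depth applies, and the number of arrays limits the precision.

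The 10 parental arrays were fitted by lmFit and eBayes of limma 3.58.1 (R 4.3.3), and genes were called at an adjusted p under 0.01. Relations over segregants used Spearman's rho (Python 3.11.15, scipy 1.17.1), with a 95% interval by Fisher's z. The alternatives were the methods' t-test, robust eBayes, the replicate number as a block, each parental array left out, array medians subtracted, Pearson's r, the first spore of each of 21 asci, and 2 extreme segregants left out. Both fits were run on simulated data in which each probe was drawn or shuffled on its own. Those data leave out the correlation between probes, so they do not cover it. Members, lists and tests were chosen with earlier results of these data known. The text names all members, the 5 highest and 5 lowest probes in rho with *GCN3*, the 2 probes on either side of it in the ranking by R70, and in each list up to 3 called genes of largest parental difference and the 2 of largest rho with R70.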

Additional observations from a re-analysis of the deposited data

Results flagged for a closer look

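In the 59A cultures, the highest *GCN4* value, 0.41 in replicate 5, stood apart from the other 4, which lay between 0.06 and 0.14. Its gap to the nearest of them was 76.8% of the range of the group, and it was the only one to stand apart so among 16 groups of 5 arrays (8 genes in S288C and in 59A), where chance gives about 1 in 20. Without this array the difference in *GCN4*, S288C minus 59A, was -0.06.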

How the results depend on the processing

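Between the parents, 2 members were called, and 1 was called under the methods' t-test. Leaving out 1 parental array gave between 1 and 2 called members, and between 1148 and 1367 called probes over the whole table. *GCD1* was called in every one of these fits. *GCN2* was lost in 7 of the 10 fits that left out 1 array. With the replicate number as a block (replicate block), 2 members and 1202 probes were called, against 1352 without it. The adjusted p of *GCN2* in that limma fit was 0.00118. Whether the numbers pair the cultures is not known. Deviations of same-numbered cultures correlated at r between -0.29 and 0.39 over 5 pairs, and 2 S288C arrays had their best 59A match under the same number. No partner was called with any trait or with *GCN3* under any alternative, though *GCD7* with *GCN3* reached an adjusted p of 0.0480 without the 2 extreme segregants, at a rho of 0.55 below the required 0.6. Some rho near 0 changed sign. *GCN2* had an r of -0.0135 with R70. With *GCN3*, *SUI2* had a rho of 0.00985 without the 2 extreme segregants, *GCD11* of 0.0158 after array medians were subtracted, and *GCN2* of -0.0364 with the first spore of each ascus. The depth of a spotted array cannot be stated, and signals over background were not used here.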
